A study of Mus musculus with 72 samples.

Results

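The 9 genes described here, Tat, Tdo2, Hpd, Hal, Uroc1, Sds, Oat, Gpt and Gpt2, encode liver enzymes that take amino acids apart. They were chosen by symbol from the 20105 genes of the count table, and all 9 were found and passed the filter on low counts. RNA was measured in liver nuclei of 36 mice, with 1 library of bead-bound hepatocyte nuclei and 1 library of whole liver nuclei from each animal, which gives 72 libraries in 18 groups of 4. All animals, controls included, carried CAG-Sun1/sfGFP and Albumin-Cre, so that the Albumin promoter restricts a green fluorescent tag on the nuclear envelope to cells that express it, and beads can draw out hepatocyte nuclei. The groups were BALB/c mice with C26 tumours and cachexia (loss of over 10% of body weight), BALB/c mice with C26 tumours before cachexia, C57BL/6N mice with 8025 tumours and cachexia, BALB/c mice with NC26 tumours and stable weight, C57BL/6N mice with MC38 tumours and stable weight, and PBS animals of each of these 4 cohorts. Livers were collected at zeitgeber time 9. Each animal has its own number in the labels, so replicates are separate mice, and age and sex are not in the labels. The design sets tumours that induce cachexia (C26, 8025) beside tumours that leave weight stable (NC26, MC38).

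Amino acids that are not built into protein are broken down largely in the liver. An aminotransferase, a dehydratase or an ammonia-lyase removes the amino group, which enters the urea cycle, and the carbon skeleton can become glucose or fuel. Several genes of this set are textbook examples of hormonal control: glucocorticoids and glucagon raise Tat and Sds in fasting, and glucocorticoids and tryptophan raise the activity of Tdo2. Tat and Hpd act in succession on tyrosine, and Hal and Uroc1 act in succession on histidine. Tdo2 opens the ring of tryptophan and starts the kynurenine pathway. Sds turns serine and threonine into keto acids, Oat turns ornithine into a precursor of glutamate, and Gpt (cytosolic) and Gpt2 (mitochondrial) exchange the amino group of alanine with glutamate.

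Total counts per library ran from 8487495 to 56380860 in hepatocyte nuclei and from 12239096 to 30324405 in whole liver nuclei. The members were well covered, with 584 to 115203 counts per gene and library in hepatocyte nuclei and 369 to 50608 in whole liver nuclei. The 10 hepatocyte markers (Alb, Apob and others) were all present in hepatocyte nuclei. Markers of sinusoidal endothelium summed to 72.3 to 406 CPM (counts scaled to the size of the library) there, against 928 to 1550.1 CPM in whole liver nuclei. The sum of 9 macrophage markers was 19.9 to 162 CPM in hepatocyte nuclei and 249 to 1053 CPM in whole liver nuclei. Hepatocyte markers overlapped between the fractions, with sums of 11098 to 28733 CPM in hepatocyte nuclei and 10928 to 29196 CPM in whole liver nuclei. Cholangiocyte markers overlapped as well, at 130 to 635 CPM in hepatocyte nuclei and 131 to 595 CPM in whole liver nuclei. MC38 tumour animal 2 had the lowest level of its group in 8 of the 9 members, all but Hal, in both fractions, and its Tat is given with and without it.

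Counts cover the whole gene span with introns, so levels of different genes are compared here per length, as CPM per kb of counted length. On that scale Tat was the most abundant member in hepatocyte nuclei of the 16 PBS animals, at 136 ± 58.9 CPM per kb (SD). A group of 3 followed, with Hpd at 44.8 ± 17.7, Sds at 40.7 ± 23.4 and Tdo2 at 39.9 ± 15.2 CPM per kb, whose ranges overlap. Gpt at 20.8 ± 8.41, Gpt2 at 14.9 ± 4.22 and Uroc1 at 12.9 ± 2.60 CPM per kb came next, with ranges that also overlap. Hal at 6.68 ± 2.76 and Oat at 5.48 ± 3.54 CPM per kb were lowest. The span that was counted is 2.91 kb for Gpt and 34.9 kb for Gpt2, the shortest and longest of the 9, so a Gpt2 level in CPM is not comparable with a Gpt level in CPM. The share of reads from introns was not measured, so the order per kb also depends on the span, and the order by CPM is given at the end.

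**Figure D1:**
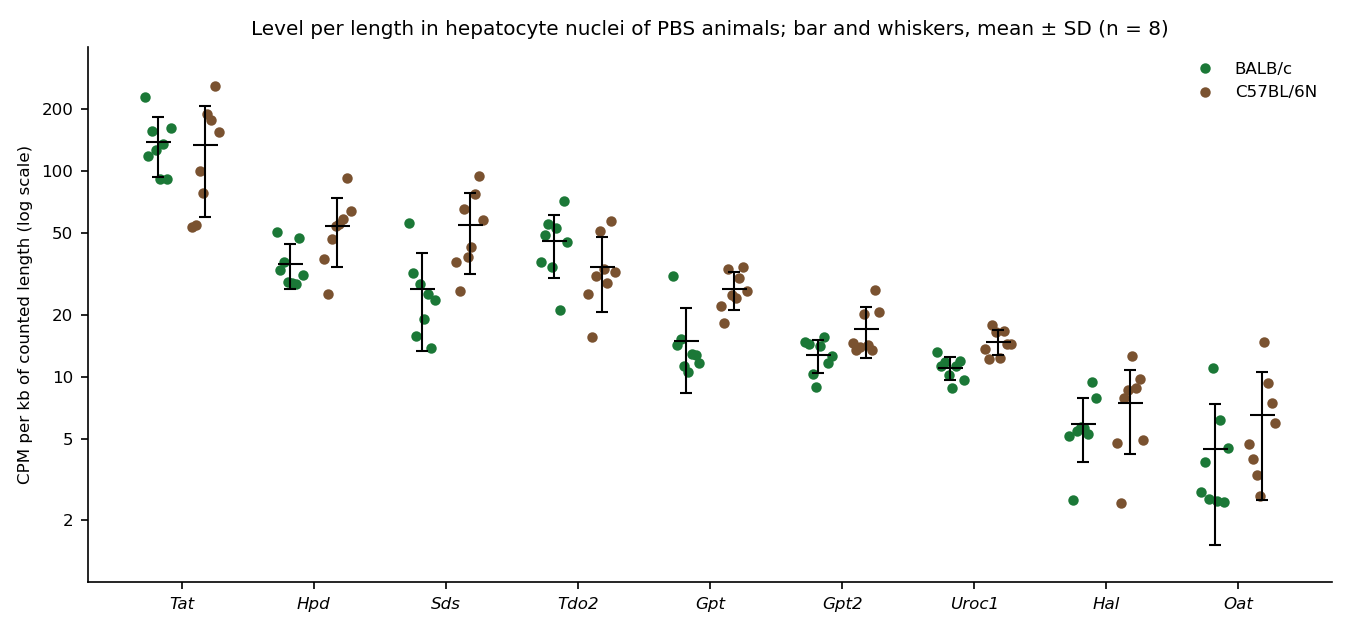
Level of each enzyme gene in hepatocyte nuclei of PBS animals, in CPM per kb of counted length on a log axis, with 8 BALB/c animals left of 8 C57BL/6N animals; bars and whiskers are mean ± SD. Tat averaged 139 ± 44.7 CPM per kb in BALB/c and 133 ± 73.6 in C57BL/6N animals, above the other genes, and Hal and Oat were lowest in both strains.

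On the mm10 build Tat lies at chr8:109990436-109999804, Tdo2 at chr3:81958414-81975728, Hpd at chr5:123171807-123182686, Hal at chr10:93488768-93516743 and Uroc1 at chr6:90333289-90364548. Sds lies at chr5:120476547-120483905, Oat at chr7:132557475-132576398, Gpt at chr15:76696764-76699675 and Gpt2 at chr8:85492617-85527558. The values of each gene cover this span, exons and introns together. Of Sds, 13 bases overlap Plbd2, and how the counting used strand is not given in the sources used here, so reads there cannot be told apart. No other member overlaps a gene of the table.

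RefSeq promoter windows (GRCm38.p6, 250 bases before to 50 bases after the start) were matched by symbol for 7 of the 9 members, Tat, Tdo2, Hpd, Hal, Uroc1, Oat and Gpt2. The start is RefSeq's and need not be the edge of the counted span. The 250 bases before it are shown for Tat, Tdo2 and Hpd, whose RNA was higher in cachexia than in pre-cachexia, and for Hal, whose RNA was higher in cachexia than in PBS animals. Capitals mark a motif match.
Tat, chr8:109990186-109990435, plus strand: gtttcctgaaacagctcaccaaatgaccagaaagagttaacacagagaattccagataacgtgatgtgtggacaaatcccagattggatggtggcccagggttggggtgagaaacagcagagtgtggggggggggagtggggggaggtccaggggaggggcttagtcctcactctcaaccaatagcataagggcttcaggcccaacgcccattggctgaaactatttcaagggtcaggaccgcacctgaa
Tdo2, chr3:81975729-81975978, minus strand: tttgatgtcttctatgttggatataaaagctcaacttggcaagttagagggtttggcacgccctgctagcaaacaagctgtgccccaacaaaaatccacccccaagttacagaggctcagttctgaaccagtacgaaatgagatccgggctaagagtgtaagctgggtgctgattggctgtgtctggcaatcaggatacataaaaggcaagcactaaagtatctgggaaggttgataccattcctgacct
Hpd, chr5:123182724-123182973, minus strand: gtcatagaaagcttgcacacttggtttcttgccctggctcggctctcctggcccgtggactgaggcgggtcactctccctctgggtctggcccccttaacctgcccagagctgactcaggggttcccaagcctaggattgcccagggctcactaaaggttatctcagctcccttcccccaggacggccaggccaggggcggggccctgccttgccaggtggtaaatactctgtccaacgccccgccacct
Hal, chr10:93488518-93488767, plus strand: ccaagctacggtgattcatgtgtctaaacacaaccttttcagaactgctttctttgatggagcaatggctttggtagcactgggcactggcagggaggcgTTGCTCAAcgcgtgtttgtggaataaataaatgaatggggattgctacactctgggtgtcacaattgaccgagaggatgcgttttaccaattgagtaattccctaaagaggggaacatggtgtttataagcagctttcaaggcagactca

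Each window was searched on both strands for 6 motifs. The glucocorticoid receptor core AGAACA was found in none of the 7 member windows and in 19.0% of all 32851 RefSeq windows of the same length. The full receptor element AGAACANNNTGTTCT, which contains that core, was found in none of the 7 and in 0.00913% of all windows. The C/EBP motif TTGCNNAA was found in 1 of 7, as TTGCTCAA in Hal 150 to 143 bases before the start, and in 10.8% of all windows. The STAT motif TTCNNNGAA was found in none of the 7 and in 8.30% of all windows. The cAMP response core TGACG was found in 1 of 7, in Oat 34 to 38 bases after the start, and in 20.8% of all windows. The HNF1 core GTTAAT was found in none of the 7 and in 7.10% of all windows. A match is a description and not a site or a cause, and no match says only that these letters are not in this window.

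Along the C26 course, Tat and Tdo2 had their lowest means before cachexia and their highest in cachexia. Tat stood at 2139.7, 1106, 1467 and 1179 CPM in the 4 PBS animals, at 953, 455, 741 and 648 CPM in the 4 pre-cachexia animals and at 1449, 1620.0, 1930.2 and 3109 CPM in the 4 cachexia animals. All 4 cachexia animals lay above all 4 pre-cachexia animals, and the cachexia and PBS animals overlapped. Tat was 2.90-fold higher in cachexia than in pre-cachexia (log2 fold change 1.54 ± 0.45, SE, adjusted p = 0.027, edgeR's quasi-likelihood test). Tdo2 stood at 623, 847, 950.4 and 589 CPM in the 4 PBS animals, at 399, 516, 312 and 489.9 CPM in the 4 pre-cachexia animals and at 803, 1169, 833 and 1805 CPM in the 4 cachexia animals. The pre-cachexia animals again lay below both other groups without overlap. Tdo2 was 2.69-fold higher in cachexia than in pre-cachexia (log2 fold change 1.43 ± 0.34, adjusted p = 0.0073). Hpd, the step after Tat in tyrosine breakdown, had 551, 358, 391 and 312 CPM in PBS animals, 404, 329, 276 and 332 CPM in pre-cachexia animals and 464, 639, 578 and 764 CPM in cachexia animals. No cachexia animal overlapped the pre-cachexia group. Hpd was 1.82-fold higher in cachexia than in pre-cachexia (log2 fold change 0.86 ± 0.26, adjusted p = 0.032). In bulk RNA of nuclei, fewer cells of a type and less RNA per cell cannot be told apart.

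Tat, Tdo2 and Hpd were the 3 of 9 members called between cachexia and pre-cachexia in hepatocyte nuclei, all higher, where 9.09% of all genes tested were called at an adjusted p under 0.05. In whole liver nuclei 4 of 9 were called, all higher, where 11.6% of all genes were called. There Tat differed by 1.62 ± 0.44 (log2 fold change ± SE, adjusted p = 0.015), Tdo2 by 1.35 ± 0.33 (adjusted p = 0.0063) and Hpd by 0.91 ± 0.27 (adjusted p = 0.024). The fourth was Gpt2, with 359 ± 70.2 CPM in cachexia and 225 ± 27.3 CPM in pre-cachexia animals (SD, n = 4 each; log2 fold change 0.68 ± 0.22, adjusted p = 0.043). Tat in whole liver nuclei had 1152, 1299.9, 1610.2 and 2624 CPM in cachexia and 722, 346, 605 and 499.6 CPM in pre-cachexia animals, again without overlap. Each animal gave both libraries, so both fractions describe the same livers.

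These calls leaned on few animals. Without cachexia animal 4, which had the highest Tat, Tdo2 and Hpd of its group, the values in hepatocyte nuclei were log2 fold change 1.23, adjusted p 0.15 for Tat, log2 fold change 1.10, adjusted p 0.067 for Tdo2 and log2 fold change 0.71, adjusted p 0.15 for Hpd. The Tat call was also lost without pre-cachexia animal 2 or 4 (log2 fold change 1.23 to 1.50, adjusted p 0.073 to 0.15 over the 3 omissions that ended it). The Hpd call was lost without any 1 of the 8 animals other than cachexia animal 1 and pre-cachexia animal 1 (log2 fold change 0.71 to 0.89, adjusted p 0.055 to 0.15). Among the whole liver libraries no omission ended the Tdo2 call, cachexia animal 4 or pre-cachexia animal 2 ended the Tat call, these 2 animals or pre-cachexia animal 3 ended the Hpd call, and 6 of 8 omissions (all but cachexia animal 1 and pre-cachexia animal 1) ended the Gpt2 call. Summed hepatocyte markers moved in the same direction as the 3 genes, at 13914 to 16993 CPM in PBS, 11098 to 12020.2 CPM in pre-cachexia and 19021 to 28733 CPM in cachexia animals. Of the 10, 4 were higher in cachexia than in pre-cachexia, where 9.09% of all genes were called, and none was at 0. Summed periportal markers, of the zone where most amino acid breakdown takes place, were 7798 to 9935 CPM in PBS, 3763 to 6498 CPM in pre-cachexia and 8430.1 to 17224 CPM in cachexia animals. The larger part was Cps1, also a listed hepatocyte marker, with means of 6270 CPM in PBS, 2979 CPM in pre-cachexia and 8758 CPM in cachexia animals. Cps1 and Arg1 were called higher in cachexia than in pre-cachexia, and Cyp2f2 lower (log2 fold change -0.78 ± 0.24). Against PBS animals, Etnppl (-2.60 ± 0.52) and Cyp2f2 (-0.86 ± 0.24) were lower in cachexia, and no periportal gene was called higher. Summed pericentral markers were 1731 to 2916 CPM in PBS, 2554 to 4023 CPM in pre-cachexia and 2697 to 4149 CPM in cachexia animals. The part of any of these in the result was not tested.

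Before cachexia, no member was called against PBS in hepatocyte nuclei, where 7.72% of all genes were called. Tat differed by -1.07 ± 0.45 (log2 fold change ± SE, adjusted p = 0.14) and Tdo2 by -0.81 ± 0.34 (adjusted p = 0.14). Neither gene's values overlapped between the groups. Over all genes tested, 3142 had an unadjusted p under 0.05 in edgeR's test, and how many did not overlap was not counted. Tdo2 in whole liver nuclei fell to 499, 496, 372 and 517 CPM in pre-cachexia animals, against 1368, 1011, 1111 and 632 CPM in PBS animals. The groups did not overlap, and Tdo2 was 2.19-fold lower (log2 fold change -1.13 ± 0.33, adjusted p = 0.02). It was the only member called there, 1 of 9, where 12.8% of all genes were called. Without PBS animal 1 the value was log2 fold change -0.96 with an adjusted p of 0.091. That animal had the highest Tdo2 of the PBS group in whole liver nuclei but not in hepatocyte nuclei. Genes with rRNA-like reads made up 7% of the counts in its hepatocyte library and 1.09% in its whole liver library. The part of this in the call was not tested. Tat in whole liver nuclei differed by -1.26 ± 0.44 with an adjusted p of 0.053, just outside the threshold, and was called with the C26 cohort fitted alone (log2 fold change -1.28, adjusted p 0.023).

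Against PBS animals, Hal was the only member called in cachectic C26 animals. Means of the other members in hepatocyte nuclei were also higher in cachexia, but for Gpt, and none passed the test. Hal stood at 143, 70.5, 153 and 159 CPM in the 4 PBS animals, at 156, 187, 199.6 and 170.3 CPM in the 4 pre-cachexia animals and at 239.9, 168, 331 and 422 CPM in the 4 cachexia animals. All 4 cachexia animals lay above all 4 PBS animals, and the pre-cachexia animals overlapped both. Hal was 2.21-fold higher in cachexia than in PBS animals (log2 fold change 1.14 ± 0.40, adjusted p = 0.039), which makes 1 of 9 members called where 22.2% of all genes were. In whole liver nuclei Hal had 172, 132, 246 and 331 CPM in cachexia animals and 109, 55.3, 114 and 134 CPM in PBS animals. Cachexia animal 2 lay just below the highest PBS animal. The log2 fold change was 1.10 ± 0.40 (adjusted p = 0.044), again 1 of 9 members, where 22.1% of all genes were called. The call in hepatocyte nuclei was lost without any 1 of the 8 animals other than cachexia animal 2 (adjusted p 0.051 to 0.14). Without PBS animal 1, Hpd was called there in place of Hal (log2 fold change 0.78, adjusted p 0.043 in edgeR's test). The whole liver call was lost without cachexia animal 3 or 4 or PBS animal 1, 2 or 3 (log2 fold change 0.83 to 1.15, adjusted p 0.066 to 0.17).

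Uroc1, which acts on the product of Hal, did not pass the test at any step of the course. Uroc1 stood at 412, 353, 370.1 and 318 CPM in the 4 PBS animals, at 482, 379.8, 395 and 383 CPM in the 4 pre-cachexia animals and at 448, 524, 384 and 423 CPM in the 4 cachexia animals. The 3 groups overlapped, and cachexia differed from PBS by a log2 fold change of 0.29 ± 0.15 (adjusted p = 0.18, 95% interval -0.02 to 0.61). Sds stood at 413, 234, 116 and 206 CPM in the 4 PBS animals, at 305, 129, 111 and 148 CPM in the 4 pre-cachexia animals and at 317, 419, 515 and 285 CPM in the 4 cachexia animals. Sds spread widely within each group, and its log2 fold change between cachexia and pre-cachexia was 1.15 ± 0.48 with an adjusted p of 0.14 in hepatocyte nuclei and 1.27 ± 0.46 with an adjusted p of 0.071 in whole liver nuclei. With the C26 cohort fitted alone, Sds was called in whole liver nuclei between cachexia and pre-cachexia (log2 fold change 1.32, adjusted p 0.015) and between cachexia and PBS (log2 fold change 0.96, adjusted p 0.036). Oat ran from 48.2 to 208 CPM in PBS, 50.7 to 188 CPM in pre-cachexia and 65.1 to 207 CPM in cachexia animals, and its 3 groups overlapped.

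The values of the alanine aminotransferases Gpt2 and Gpt are given side by side. Gpt2 stood at 513, 504, 359 and 312 CPM in the 4 PBS animals, at 360.5, 283, 249.6 and 290.4 CPM in the 4 pre-cachexia animals and at 349, 468, 534 and 502 CPM in the 4 cachexia animals. Gpt2 had an adjusted p of 0.075 between cachexia and pre-cachexia in hepatocyte nuclei (log2 fold change 0.65 ± 0.23), beside the call in whole liver nuclei given above. Gpt had 32.7 to 89.4 CPM in PBS, 37.1 to 61.7 CPM in pre-cachexia and 31.0 to 75.0 CPM in cachexia animals. Its log2 fold change between cachexia and pre-cachexia was -0.03 ± 0.28 (95% interval -0.60 to 0.53). The difference between Gpt and Gpt2 was not tested.

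**Figure D2:**
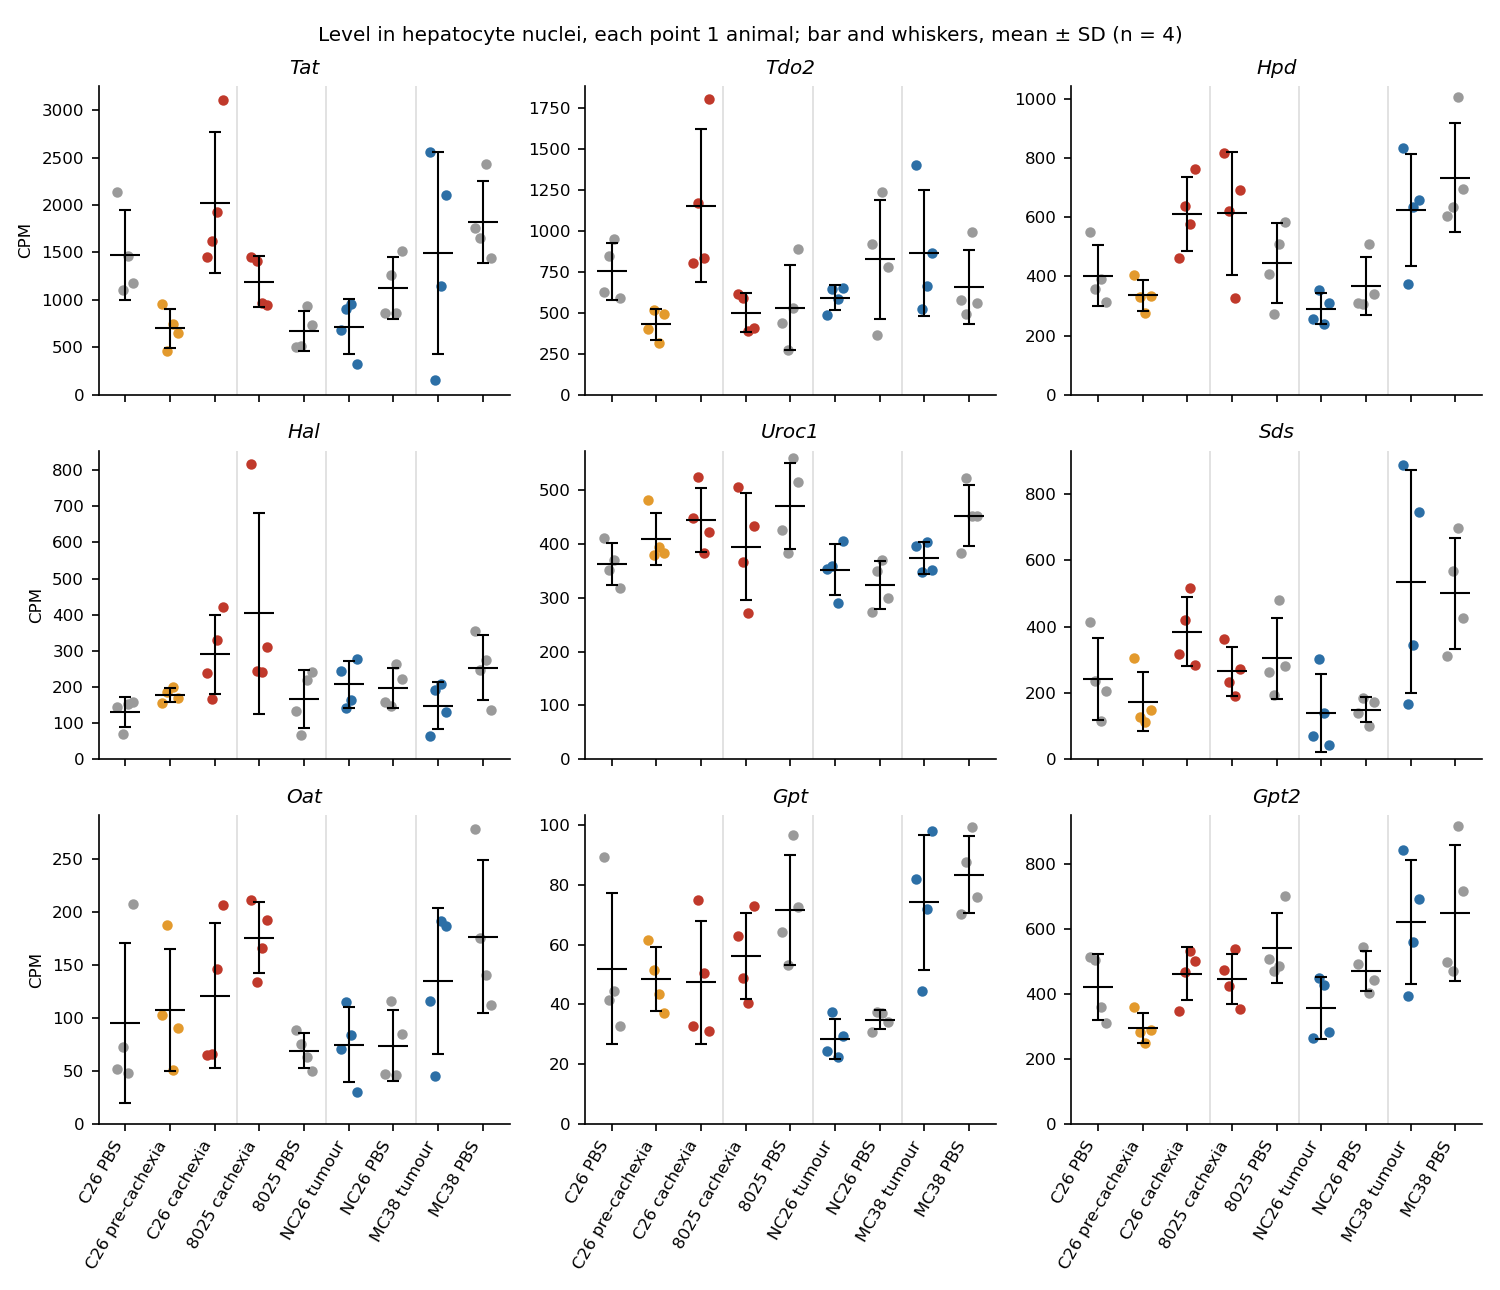
Level of each enzyme gene in hepatocyte nuclei in CPM, 1 point per animal, with the C26 course from PBS to cachexia at the left and each other tumour group left of its PBS group; bars and whiskers are mean ± SD of 4 animals. Tat stood at 455 to 953 CPM in pre-cachexia and 1449 to 3109 CPM in cachexia animals, and 1 MC38 tumour animal had 157 CPM of Tat, the lowest of all 36.

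In 8025 cachexia, the members called in hepatocyte nuclei were Hal and Oat. Hal had 816, 245, 241 and 311 CPM in the 4 cachexia animals and 134, 68.0, 220.1 and 242 CPM in the 4 PBS animals. Cachexia animal 1 stood far above the rest, and the lowest cachexia animal lay just under the highest PBS animal. Hal was 2.43-fold higher (log2 fold change 1.28 ± 0.40, adjusted p = 0.016), and without cachexia animal 1 the value was log2 fold change 0.68, adjusted p 0.2. The call was also lost without PBS animal 1 or 2. Oat had 211, 134, 166 and 193 CPM in cachexia animals and 88.7, 75.5, 62.9 and 49.5 CPM in PBS animals. The groups did not overlap, and Oat was 2.54-fold higher (log2 fold change 1.35 ± 0.49, adjusted p = 0.036). The Oat call was lost without any 1 of the 8 animals other than cachexia animal 2 and PBS animal 1 (log2 fold change 1.21 to 1.38, adjusted p 0.059 to 0.094). The MC38 PBS animals, of the same strain, had 278, 176, 141 and 113 CPM of Oat, which overlaps the 8025 cachexia animals.

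These were 2 of 9 members, where 29.3% of all genes tested were called between 8025 cachexia and PBS in hepatocyte nuclei. Hal alone was called in whole liver nuclei, 1 of 9, where 36.6% of all genes were called. Hal differed there by 1.19 ± 0.40 (log2 fold change ± SE, adjusted p = 0.019), and without cachexia animal 1 the value was log2 fold change 0.60, adjusted p 0.23. The call was lost as well without PBS animal 1 or 2 (log2 fold change 0.60 to 1.05, adjusted p 0.065 to 0.23 over the 3 omissions). Oat in that fraction had 163, 109, 130.0 and 149 CPM in cachexia and 89.0, 83.0, 60.2 and 45.0 CPM in PBS animals, again without overlap, and missed the threshold (log2 fold change 0.99 ± 0.42, adjusted p = 0.062). How many of all genes did not overlap there was not counted. The share of called members was below the share of called genes in both fractions. Fitted on the 8025 cohort alone, Hal missed the threshold in each fraction (log2 fold change 1.30, adjusted p 0.076 in hepatocyte nuclei, and log2 fold change 1.20, adjusted p 0.089 for whole liver), while Oat in whole liver nuclei passed it (adjusted p 0.0088). DESeq2 also called Oat there (log2 fold change 1.01, adjusted p 0.041).

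Tat in 8025 cachexia had 1451, 1405, 968 and 950.3 CPM, against 501, 509, 939 and 735 CPM in 8025 PBS animals. The groups did not overlap, and the log2 fold change of 0.83 ± 0.44 had an adjusted p of 0.16 (log2 fold change 0.85, adjusted p 0.031 with the 8025 cohort fitted alone). How many of all genes did not overlap between these groups was not counted. Tdo2 and Hpd, which were higher in cachexia than in pre-cachexia in the C26 course, differed from PBS in 8025 cachexia by -0.09 ± 0.34 (adjusted p = 0.87) and 0.47 ± 0.26 (adjusted p = 0.18). No pre-cachexia group of 8025 animals was analysed here. Uroc1, Sds, Gpt and Gpt2 had log2 fold changes of -0.25, -0.20, -0.35 and -0.28 between cachexia and PBS, and none passed the test.

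**Figure D3:**
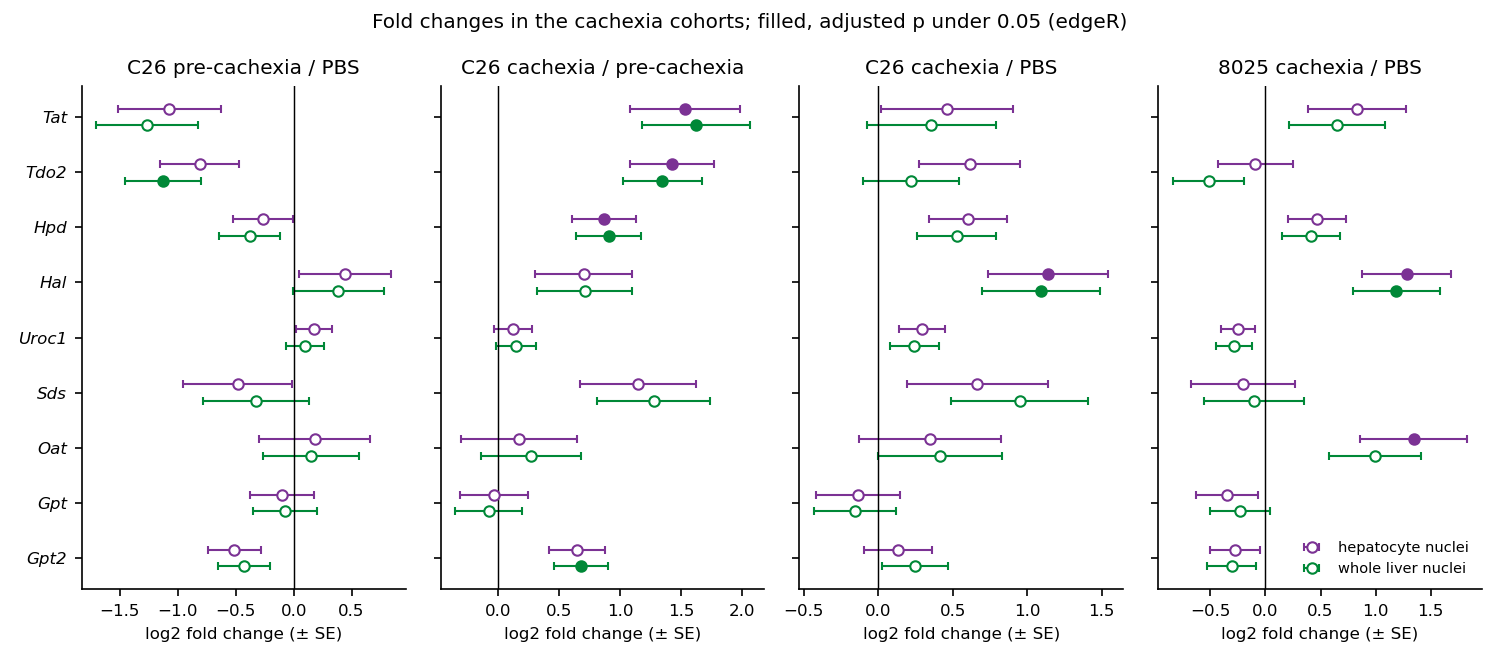
Log2 fold change ± SE of each enzyme gene in the C26 and 8025 cohorts, in hepatocyte nuclei (purple) and whole liver nuclei (green); filled points have an adjusted p under 0.05 (edgeR). Tat, Tdo2 and Hpd are filled between C26 cachexia and pre-cachexia in both fractions, and Hal is filled in both comparisons of cachexia with PBS.

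Tests of the difference between the C26 cachexia effect and the 8025 cachexia effect called no member, in hepatocyte nuclei, where 0.957% of all genes were called, or in whole liver nuclei, where 6.57% were. The difference for Oat had a 95% interval of -2.38 to 0.38 on the log2 scale (adjusted p = 0.54), and that for Tdo2 was 0.71 ± 0.48 (adjusted p = 0.54, 95% interval -0.27 to 1.68) in hepatocyte nuclei. The C26 comparison was made in BALB/c mice and the 8025 comparison in C57BL/6N mice, so tumour and strain cannot be told apart.

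In mice with weight-stable tumours no member passed the test. Between NC26 tumour and PBS animals 0.324% of genes were called in the hepatocyte and 0.728% in the whole liver libraries, with 0 of 9 members in each. Tat had 685, 902, 959 and 322 CPM in NC26 tumour animals and 857, 1261, 856 and 1518 CPM in NC26 PBS animals, with overlap (log2 fold change -0.65 ± 0.44, adjusted p = 0.57). Between MC38 tumour and PBS animals 0% of genes were called in either fraction. Of all genes, 572 in the hepatocyte and 790 in the whole liver libraries had an unadjusted p under 0.05, and DESeq2 called 6 and 14, none of them a member. Log2 fold changes of the 9 in hepatocyte nuclei ran from -0.65 (Tat) to 0.12 (Uroc1) for NC26 and from -0.77 (Hal) to 0.40 (Tdo2) for MC38.

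The MC38 tumour animals were unequal in these enzymes. Tat had 2564, 157, 1148 and 2109 CPM in the 4 MC38 tumour animals and 1763, 1648, 2432 and 1441 CPM in the 4 MC38 PBS animals. Tumour animal 2 held the lowest Tat of all 36 animals. Without it, the log2 fold change of Tat between MC38 tumour and PBS animals was 0.11, adjusted p 1, against -0.29 ± 0.44 (adjusted p = 1) with it. Sds had 887, 167, 344 and 744 CPM in MC38 tumour animals and 312, 568, 696 and 425 CPM in MC38 PBS animals, and tumour animal 2 was again the lowest of its group. The whole liver library of that animal had a Tat level of 137 CPM.

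The cachexia effects were set against the weight-stable effects in the same strain. The C26 cachexia effect minus the NC26 effect called no member in hepatocyte nuclei, where 1.89% of all genes were called, or in whole liver nuclei, where 3.4% were. For Tdo2 that difference was 1.09 ± 0.48 on the log2 scale (adjusted p = 0.26), and for Hpd 0.94 ± 0.37 (adjusted p = 0.19) in hepatocyte nuclei. The 8025 cachexia effect minus the MC38 effect called Hal, 1 of 9 members, where 7.21% of all genes were called in the hepatocyte and 13.5% in the whole liver libraries. Hal had 63.7, 191, 208 and 132 CPM in MC38 tumour animals and 354, 247, 273 and 137 CPM in MC38 PBS animals, a lower mean with overlap, while it was higher in 8025 cachexia than in 8025 PBS animals. The difference of the effects was 2.05 ± 0.57 in hepatocyte nuclei (adjusted p = 0.024) and 2.04 ± 0.56 in whole liver nuclei (adjusted p = 0.014). Without 8025 cachexia animal 1 it was 1.44 (adjusted p 0.096) in hepatocyte nuclei and 1.45 (adjusted p 0.059) in whole liver nuclei. In hepatocyte nuclei the call was lost also without 8025 PBS animal 1 or 2 or MC38 PBS animal 1 (log2 fold change 1.44 to 1.96, adjusted p 0.051 to 0.096 over all 4 omissions). With the 8025 and MC38 cohorts fitted alone it was 2.04 (adjusted p 0.083) in hepatocyte nuclei and 2.03 (adjusted p 0.061) in whole liver nuclei.

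Most members varied more between animals of the same group than most genes did. The SD of log2 CPM within groups was 0.753 for Tat, 0.732 for Oat, 0.724 for Sds and 0.611 for Hal in hepatocyte nuclei, against a median of 0.227 over the 4963 genes whose mean reached 30 CPM. Of those genes, 97.7% had a lower SD than Tat, 97.4% than Oat, 97.3% than Sds and 95.2% than Hal. Tdo2 (0.508), Gpt (0.412), Hpd (0.390) and Gpt2 (0.334) lay between, and Uroc1 (0.216) was near the median. In the order of the 9 group means, every one of the 8 neighbouring pairs overlapped for every member, in both fractions. Sorting by mean favours such overlap, and it was not counted for other genes, so it says nothing particular about the members.

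For most members both libraries of an animal deviated alike from their group means. Over the 36 animals the deviations in hepatocyte and whole liver nuclei had a correlation of 0.996 for Tat, 0.994 for Oat, 0.993 for Hal, 0.934 for Gpt2, 0.893 for Tdo2 and 0.889 for Hpd. It was lower for Sds (0.804), Uroc1 (0.744) and Gpt (0.472). Points of such a correlation share the animal and its liver, and no p is given. Between members, the deviations of the 36 hepatocyte libraries were most alike for Tat and Sds (r = 0.709), Tdo2 and Hpd (0.701) and Hpd and Uroc1 (0.698). Hal and Uroc1, the successive steps of histidine breakdown, had r = 0.302, and Tat and Hpd, those of tyrosine breakdown, r = 0.539.

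**Figure D4:**
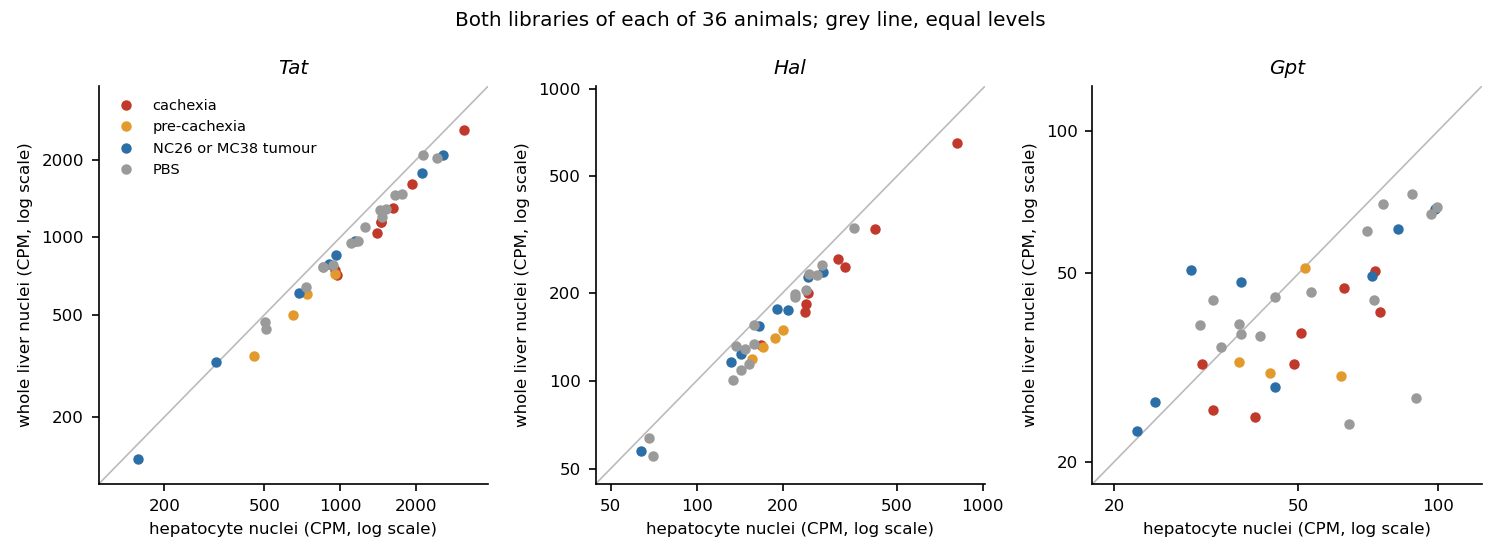
Level in whole liver nuclei against level in hepatocyte nuclei, both in CPM on log axes, for the 36 animals coloured by condition. The grey line marks equal CPM, with each fraction scaled on its own. Tat and Hal follow a narrow band below the line (correlation of deviations 0.996 and 0.993), and Gpt scatters (0.472).

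Among PBS animals, 5 of 9 members were lower in BALB/c than in C57BL/6N mice in hepatocyte nuclei, where 41.2% of all genes were called. Gpt had a lowest, median and highest level of 30.7, 37.4 and 89.4 CPM in 8 BALB/c animals and 53.3, 74.5 and 99.5 CPM in 8 C57BL/6N animals. The ranges overlap through 1 BALB/c animal, and Gpt was 1.81-fold lower in BALB/c (log2 fold change -0.86 ± 0.20, adjusted p = 0.00087). Sds had 101, 179 and 413 CPM in BALB/c and 193, 368 and 696 CPM in C57BL/6N animals and was 2.05-fold lower in BALB/c (adjusted p = 0.014). Uroc1 had 275, 352 and 412 CPM in BALB/c and 383, 453 and 559 CPM in C57BL/6N animals, with overlap through 1 BALB/c animal (log2 fold change -0.43 ± 0.11, adjusted p = 0.0023). Hpd (log2 fold change -0.57 ± 0.18, adjusted p = 0.013) and Gpt2 (-0.41 ± 0.16, adjusted p = 0.039) were also lower in BALB/c. The Hpd call was lost without MC38 PBS animal 3 (adjusted p = 0.055), and the Gpt2 call without any 1 of 8 of the 16 animals (adjusted p 0.058 to 0.17). The Gpt2 call was lost as well without the 5 genes with rRNA-like reads (log2 fold change -0.38, adjusted p 0.057).

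In whole liver nuclei Uroc1, Sds, Gpt and Gpt2 were lower in BALB/c, 4 of 9, where 39.6% of all genes were called. Tat, Tdo2, Hal and Oat passed the test in neither fraction. Tdo2 had 363, 813 and 1238 CPM in BALB/c and 269, 545 and 992 CPM in C57BL/6N animals of the hepatocyte libraries. Each strain held 2 cohorts, and strain and cohort cannot be told apart beyond the comparison of cohorts that follows.

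PBS groups of the same strain were compared after their levels had been seen. Between MC38 PBS and 8025 PBS animals 0 of 9 members were called in hepatocyte nuclei, where 0.00753% of all genes were (DESeq2 called 14 genes). Tat, Hpd and Oat did not overlap between these groups. Of all 13274 genes tested, 1019 had an unadjusted p under 0.05 in edgeR's test, and how many did not overlap was not counted. Tat had 1763, 1648, 2432 and 1441 CPM in MC38 PBS and 501, 509, 939 and 735 CPM in 8025 PBS animals, a log2 fold change of 1.44 ± 0.45 (adjusted p = 0.32, unadjusted p = 0.0031 in edgeR's test). Hpd differed by 0.73 ± 0.26 (adjusted p = 0.42, unadjusted p = 0.0091) and Oat by 1.35 ± 0.49 (adjusted p = 0.42, unadjusted p = 0.0091). Beside these values, the log2 fold change of Tat was 0.83 in 8025 cachexia and -0.29 in MC38 tumour animals against their own PBS animals, which share the PBS groups compared here. In whole liver nuclei 0.466% of all genes and again 0 of 9 members were called, with Tat at 1.43 ± 0.44 (adjusted p = 0.099) and Hpd at 0.97 ± 0.27 (adjusted p = 0.076). DESeq2 called both there (log2 fold change 1.41, adjusted p 0.047 for Tat, and log2 fold change 0.95, adjusted p 0.023 for Hpd), as did edgeR without 8025 PBS animal 3 (log2 fold change 1.59, adjusted p 0.044 for Tat, and log2 fold change 1.10, adjusted p 0.023 for Hpd).

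Between NC26 PBS and C26 PBS animals 0 of 9 members were called in either fraction. Over all genes 0% were called in the hepatocyte libraries, where 1208 genes had an unadjusted p under 0.05 and DESeq2 called 23. In the whole liver libraries 10.9% of all genes were called. Gpt2 had the lowest p of the members there, with 490.2, 484, 353 and 404 CPM in NC26 PBS and 301, 384, 276 and 248 CPM in C26 PBS animals (log2 fold change 0.52 ± 0.22, adjusted p = 0.13).

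Several members were higher in hepatocyte nuclei than in whole liver nuclei. In PBS animals Hpd (log2 fold change 0.42 ± 0.14, adjusted p = 0.0075), Uroc1 (0.46 ± 0.08, adjusted p = 2e-06), Gpt (0.46 ± 0.14, adjusted p = 0.0057) and Gpt2 (0.42 ± 0.11, adjusted p = 0.0015) were higher in hepatocyte nuclei, 4 of 9, where 50.9% of all genes were called. With the animal as a block, 8 of 9 members were higher, where 69.6% of all genes were called. Tat then differed by 0.34 on the log2 scale (adjusted p = 1.9e-15), Hal by 0.35 (adjusted p = 1.2e-14), Sds by 0.47 (adjusted p = 0.0002) and Oat by 0.20 (adjusted p = 3.5e-06). Tdo2 was the exception, with a difference of 0.02 (adjusted p = 0.7) in this joint fit. Its means were 691 CPM in hepatocyte and 757 CPM in whole liver nuclei with each fraction scaled on its own, so they are not on the scale of that difference.

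No member's cachexia effect was called as different between the fractions without the block. For C26, 0% of genes were called (unadjusted p under 0.05 in 295, and 1 called by DESeq2), and for 8025, 0.0427% were, with 0 of 9 members in each. With the animal as a block, the 8025 effect on Oat was larger in hepatocyte nuclei than in whole liver nuclei by 0.36 on the log2 scale (adjusted p = 0.044), 1 of 9 members, where 1.35% of all genes were called.

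The genes whose deviations from the strain mean were most like those of a member over the 36 hepatocyte libraries, among 12845 genes compared, are given with Pearson's r and no p. For Tat these were Sgk1 (r = 0.876), Arg1 (r = 0.851) and Mfsd2a (r = 0.754). For Hal they were Cth (r = 0.775), Irs2 (r = 0.758) and Ypel2 (r = 0.755), of which Cth breaks down cystathionine. For Tdo2 they were Actr6 (r = 0.784), Mpzl2 (r = 0.764) and Tmem131 (r = 0.764), and for Hpd Sfxn2 (r = 0.844), Slc29a1 (r = 0.824) and Sec14l4 (r = 0.821). For Sds they were Fes (r = 0.850), Pptc7 (r = 0.840) and Fbxo31 (r = 0.802). For Oat they were Fh1 (r = 0.673), Slc25a25 (r = 0.644) and Slc25a15 (r = 0.605), and for Uroc1 Selenbp1 (r = 0.807), Aspdh (r = 0.765) and Rnf167 (r = 0.759). For Gpt they were Rhot2 (r = 0.892), Coasy (r = 0.883) and Nags (r = 0.878), and for Gpt2 St3gal5 (r = 0.848), Baiap2l1 (r = 0.842) and Atl2 (r = 0.826). No member was among the 3 genes most like another member. The libraries include all 9 groups, so these values mix differences between groups and between animals.

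Other genes of amino acid breakdown, listed by amino acid with earlier results of these data known, were called in both directions. The list held 71 genes, of which 68 were in the table and 66 were tested. In hepatocyte nuclei 19 were higher and 3 lower in C26 cachexia than in PBS animals, where 22.2% of all genes were called (median log2 fold change 0.27, against 0.00 over all genes tested). Between C26 cachexia and pre-cachexia 18 were higher and 1 lower, where 9.09% of all genes were called. Between pre-cachexia and PBS 1 was higher and 1 lower, where 7.72% of all genes were called. In 8025 cachexia 9 were higher and 10 lower than in PBS (median -0.08, against -0.02 over all genes). There 29.3% of all genes were called, close to the share within the list. NC26 and MC38 tumours gave no call among the listed genes, where 0.324% and 0% of all genes were called in hepatocyte nuclei. The 9 members had a median log2 fold change of 0.46 in C26 cachexia against PBS, 0.70 against pre-cachexia and -0.09 in 8025 cachexia against PBS.

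By amino acid, C26 cachexia against PBS gave 1 higher and 2 lower of 6 tyrosine and phenylalanine genes, 2 higher of 7 tryptophan genes, 3 higher of 13 serine, glycine and threonine genes and 5 higher of 17 branched chain genes. Of 8 proline, arginine and glutamate genes 1 was higher, of 4 lysine genes 1, and of 2 further histidine genes none. Over all genes 22.2% were called there. The sulfur amino acid group had the largest median of the 8 groups in this comparison. In C26 cachexia 6 of its 9 genes were higher and 1 lower than in PBS animals (median log2 fold change 1.27). Mat1a, which makes S-adenosylmethionine from methionine, had 4377 ± 1306 CPM in cachexia and 807 ± 132 CPM in PBS animals (log2 fold change 2.44 ± 0.30, adjusted p = 9.1e-07). Bhmt, which remethylates homocysteine with betaine, had 1913 ± 333 CPM in cachexia and 327 ± 172 CPM in PBS animals (adjusted p = 0.0063). Cdo1, Cth and Bhmt2 were higher by 1.97 ± 0.38, 1.40 ± 0.43 and 1.27 ± 0.22 on the log2 scale. Csad, which makes a precursor of taurine from the product of Cdo1, fell to 13.1 ± 7.26 CPM in cachexia, against 85.3 ± 27.8 CPM in PBS animals (log2 fold change -2.70 ± 0.51, adjusted p = 0.00028). In 8025 cachexia 4 of 9 were higher and 1 lower than in PBS animals, where 29.3% of all genes were called. Bhmt differed by 2.36 ± 0.67, Cdo1 by 1.99 ± 0.38 and Mat1a by 1.55 ± 0.29 on the log2 scale, and Mpst, a mercaptopyruvate sulfurtransferase, by -0.90 ± 0.22.

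Got1, the cytosolic aspartate aminotransferase, had the largest fold change of the list in C26 cachexia against PBS, with 598 ± 361 CPM in cachexia and 60.2 ± 29.3 CPM in PBS animals (log2 fold change 3.31 ± 0.64, adjusted p = 0.00032). Acmsd, which steers tryptophan carbon away from NAD synthesis, had 131 ± 120.4 CPM in cachexia and 14.2 ± 5.68 CPM in pre-cachexia animals (log2 fold change 3.22 ± 0.55, adjusted p = 0.00026). Acmsd acts downstream of Tdo2, and it was also higher in C26 cachexia than in PBS (log2 fold change 1.67 ± 0.51) and in 8025 cachexia than in PBS (1.47 ± 0.51). Sdsl, a relative of Sds, was higher in C26 cachexia than in PBS (1.96 ± 0.38) and than in pre-cachexia (2.51 ± 0.39), and higher in 8025 cachexia than in PBS (1.11 ± 0.38). Agxt, a glyoxylate aminotransferase, was higher in C26 cachexia (1.78 ± 0.35) and in 8025 cachexia (1.20 ± 0.35) than in PBS animals. Lower in 8025 cachexia than in PBS animals were Afmid, the step after Tdo2 (log2 fold change -0.91 ± 0.30, adjusted p = 0.022), and Gls2, the liver glutaminase (-0.81 ± 0.23).

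**Figure D5:**
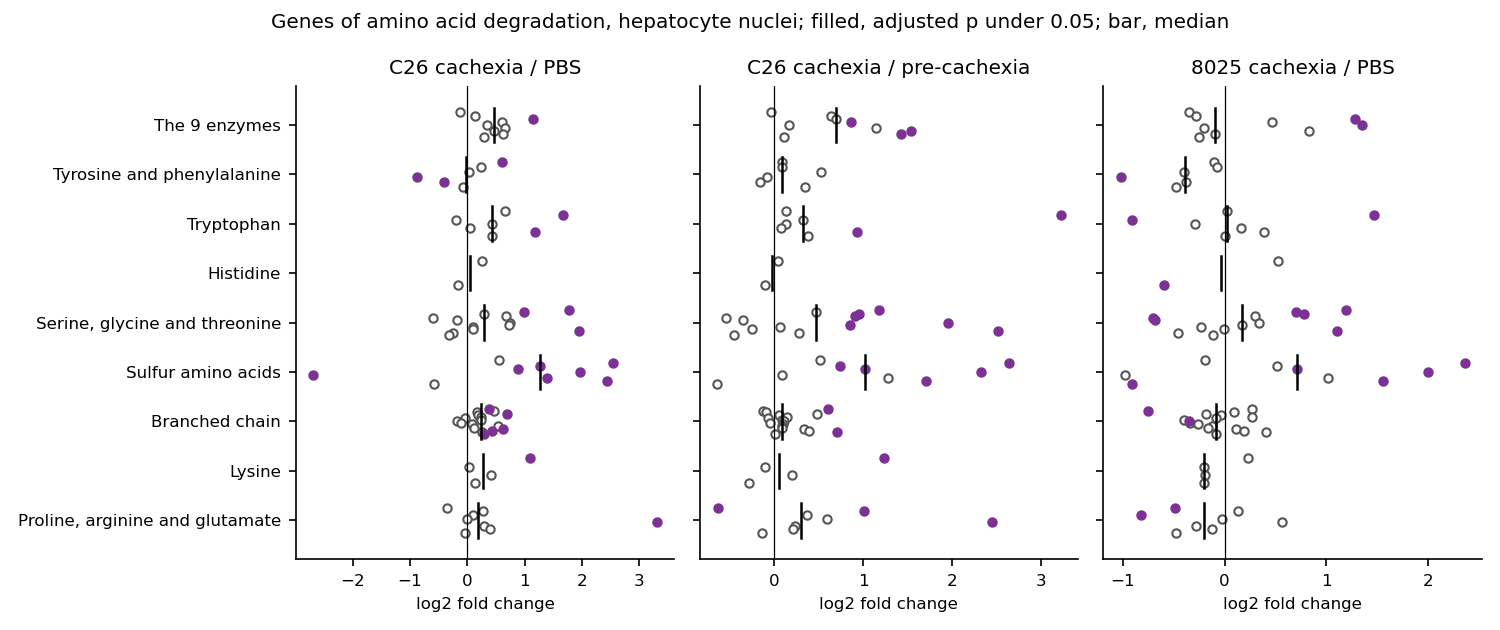
Log2 fold change of each tested gene of amino acid degradation in hepatocyte nuclei, by group of amino acid and with the 9 enzymes in the top row; filled points have an adjusted p under 0.05 and the bar is the median of the row. The sulfur row has a median of 1.27 in C26 cachexia against PBS and 0.71 in 8025 cachexia against PBS, and the 9 enzymes 0.46 and -0.09.

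Of 11 regulators that textbooks tie to these genes, 1 was higher and 2 lower in C26 cachexia than in PBS animals, where 22.2% of all genes were called, and 2 were higher and 2 lower than in pre-cachexia, where 9.09% were. In 8025 cachexia 1 was higher and 1 lower than in PBS animals, where 29.3% were. They are named after their values were seen. In C26 cachexia against PBS the coactivator Ppargc1a was higher (log2 fold change 1.35 ± 0.37, adjusted p = 0.0095), and Cebpa (-1.20 ± 0.27) and Creb3l3 (-0.98 ± 0.18) were lower. Foxo1 was lower before cachexia, with 418 ± 65.8 CPM in pre-cachexia and 706 ± 55.6 CPM in PBS animals (log2 fold change -0.75 ± 0.20, adjusted p = 0.018), and it averaged 724 ± 212 CPM in cachexia. Against pre-cachexia Ppargc1a (1.28 ± 0.37) and Foxo1 (0.79 ± 0.20) were higher, and Cebpa (-1.51 ± 0.27) and Creb3l3 (-0.75 ± 0.18) lower. In 8025 cachexia against PBS Cebpb was higher (0.94 ± 0.31) and Cebpa lower (-1.68 ± 0.28). The glucocorticoid receptor gene Nr3c1 passed the test in none of these 3 comparisons.

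Some markers of other cells differed between tumour and PBS animals of the C26 and 8025 cohorts in the same hepatocyte libraries. Of 9 tested macrophage markers 6 were higher in C26 cachexia than in PBS animals, 6 in pre-cachexia than in PBS animals and 8 in 8025 cachexia than in PBS animals. Over all genes 22.2%, 7.72% and 29.3% were called in these 3 comparisons. The sum of macrophage markers was 43.9 to 71.4 CPM in C26 PBS, 74.1 to 93.6 CPM in pre-cachexia and 79.4 to 118 CPM in cachexia animals. It was 129 to 162 CPM in 8025 cachexia and 42.5 to 53.5 CPM in 8025 PBS animals, with none of the 9 at 0. Macrophage sums overlapped between tumour and PBS animals in NC26 (40.6 to 66.3 and 20.6 to 44.5 CPM) and in MC38 (41.3 to 67.7 and 19.9 to 55.4 CPM). Of 8 cholangiocyte markers 5 were higher in 8025 cachexia, with sums of 251 to 635 CPM in cachexia and 249.8 to 320.1 CPM in PBS animals. Sums of 8 neutrophil markers had a median of 8.03 CPM in 8025 cachexia, where none was at 0, and of 1.03 CPM in 8025 PBS animals, where 3 were at 0, and the groups did not overlap. Those of 9 lymphocyte markers were 32.9 to 45.6 CPM in cachexia and 18.9 to 22.0 CPM in PBS animals, and those of 10 endothelial markers 194 to 288 CPM in cachexia and 123 to 191 CPM in PBS animals. The sum of 10 stellate cell and fibroblast markers was lower, at 50.0 to 74.8 CPM in 8025 cachexia and 85.0 to 112 CPM in 8025 PBS animals. The sums of macrophage, neutrophil, lymphocyte, endothelial and stellate markers did not overlap between 8025 cachexia and PBS animals, and those of cholangiocyte markers did. The part of these cells in the values of the members was not tested.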

How the data were processed

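RNA of 72 libraries was sequenced as 50-base paired-end reads of total RNA, without poly-A selection, per the labels' protocols. STAR 2.4.2a, mm10 and DESeq2 1.24.0 are named without a role in the submitters' processing notes. The deposited values are raw counts of 20105 genes, and the counted length beside them, per the file headers, is that of the gene with its introns. How strand was used in counting is not given in the sources used here.

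Each fraction (36 libraries, 9 groups of 4) was fitted in a single model with edgeR 4.0.16 (filterByExpr, TMM scaling, quasi-likelihood F test, Benjamini-Hochberg adjustment over 13274 or 13738 genes, threshold 0.05) in R 4.3.3. Fractions were compared in a joint fit of 14054 genes. CPM use library sizes TMM-scaled within each fraction, and SE is the log2 fold change over the root of F. DESeq2 1.42.0 was an alternative. The code was tested on simulated counts. Libraries of an animal pair by animal number, with a median correlation of deviations of 0.61 (-0.22 to 0.85). None of 108 replicate pairs were identical.

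Members and lists were chosen with earlier results of these data known. All 9 members are named. Of the listed pathway genes, those called with the largest change at a mean of at least 5 CPM are named, up to 10 for each cachexia against PBS and up to 4 for C26 cachexia against pre-cachexia. A gene that this rule names is not reported here. Regulators were named after their values were seen.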

Additional observations from a re-analysis of the deposited data

Results flagged for a closer look

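In 11 of 162 groups of 4 animals tested, 1 animal lay far from the other 3 (the gap to the nearest, over the group's range, was above Dixon's 95% critical value), and chance flags about 1 in 20 such groups.

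In hepatocyte nuclei these animals were 8025 cachexia animal 1 in Hal (816 CPM, high), C26 pre-cachexia animal 1 in Uroc1 (482 CPM, high), C26 PBS animal 4 in Oat (208 CPM, high), NC26 PBS animal 3 in Hpd (511 CPM, high), MC38 PBS animal 3 in Tdo2 (992 CPM, high) and 8025 PBS animal 4 in Gpt2 (703 CPM, high). In whole liver nuclei they were 8025 cachexia animal 1 in Hal (651 CPM, high), C26 pre-cachexia animal 2 in Gpt (51.3 CPM, high), C26 pre-cachexia animal 3 in Hpd (187 CPM, low) and in Tdo2 (372 CPM, low), and MC38 PBS animal 3 in Tdo2 (980.1 CPM, high). Hal of 8025 cachexia animal 1 and Tdo2 of MC38 PBS animal 3 appear in both fractions of the same animal.

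The effect of the tumour on Hal differed between 8025 and MC38 by 2.05 on the log2 scale in hepatocyte nuclei and by 2.04 in whole liver nuclei (8025 cachexia effect minus MC38 effect, edgeR's quasi-likelihood test, adjusted p = 0.024 and 0.014). The higher value belongs to 8025 cachexia. Neither passed the threshold without 8025 cachexia animal 1, as given in the results.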

How the results depend on the processing

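No result changed direction among those called. Of 4338 values of single members under an alternative, 4235 kept their side of the threshold, 76 lost and 27 gained a call. Leaving out 1 library made 65 of these losses and 9 of the gains. The number of members called then ran from 0 to 1 for C26 cachexia against PBS and for the 8025 minus MC38 effect in each fraction, 0 to 3 (hepatocyte) and 1 to 4 (whole liver) for C26 cachexia against pre-cachexia, 0 to 1 for pre-cachexia against PBS in whole liver nuclei, 0 to 2 (hepatocyte) and 0 to 1 (whole liver) for 8025 cachexia against PBS, 3 to 6 (hepatocyte) and 3 to 5 (whole liver) between strains, 0 to 2 between MC38 PBS and 8025 PBS animals in whole liver nuclei, and 4 to 5 between fractions; the other comparisons stayed at 0.

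Fits on the cohorts compared alone called 0 members for the 8025 minus MC38 effect in each fraction, and in whole liver nuclei 2 for C26 cachexia against PBS (Sds joined, adjusted p = 0.036) and 2 for pre-cachexia against PBS. They also gained Sds for C26 cachexia against pre-cachexia (adjusted p = 0.015) and Oat for 8025 cachexia against PBS (adjusted p = 0.0088) in whole liver nuclei, and Tat for 8025 cachexia against PBS in hepatocyte nuclei (adjusted p = 0.031), and lost Hal for 8025 cachexia against PBS in both fractions (adjusted p = 0.076 in hepatocyte and 0.089 in whole liver nuclei). With only the PBS groups fitted, Tat (log2 fold change 0.36, adjusted p = 0.036) and Sds (0.49, adjusted p = 0.04) joined the members higher in hepatocyte than in whole liver nuclei. Tat joined Tdo2 for pre-cachexia against PBS in whole liver nuclei also with RLE scaling (2 members, Tat adjusted p = 0.048), without the 5 genes with rRNA-like reads (2, adjusted p = 0.049) and with DESeq2 (2, adjusted p = 0.034). DESeq2 called 2 for 8025 cachexia against PBS in whole liver nuclei (Oat joined, adjusted p = 0.041) and 2 between MC38 PBS and 8025 PBS animals there (Tat and Hpd), and no filter on low counts left 0 for C26 cachexia against PBS there (Hal adjusted p = 0.053). Without the genes with rRNA-like reads Gpt2 was not called between strains in hepatocyte nuclei (adjusted p = 0.057). The cause was not tested.

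Correlations of same-numbered deviations between groups ran from -0.27 to 0.4. Between C26 pre-cachexia and PBS animals they were 0.072 to 0.4 in hepatocyte and 0.058 to 0.16 in whole liver nuclei. In every other comparison some were negative. Whether replicate numbers pair the C26 animals cannot be told, and the main fit did not pair animals by number. With the number as a replicate block, 1 member was called between C26 cachexia and pre-cachexia in hepatocyte nuclei (Tdo2; Tat adjusted p = 0.054, Hpd adjusted p = 0.054) and 2 in whole liver nuclei (Tat and Tdo2; Hpd adjusted p = 0.06, Gpt2 adjusted p = 0.065), and Gpt2 was not called between strains in hepatocyte nuclei (adjusted p = 0.059). The animal as a replicate block gave 8 members between fractions and 1 for the 8025 effect between fractions (Oat).

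By CPM without division by length, Tdo2 moves to place 2 of the 9 levels in PBS animals, Gpt2 to 3, Hpd to 4, Uroc1 to 5, Sds to 6, Hal to 7, Oat to 8 and Gpt to 9. No scaling moved the median of all genes by over 0.1. With 4 animals a group and SDs of log2 CPM up to 0.753, a missed threshold does not show that a gene did not differ.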
